A study of Homo sapiens with 4 samples.

Results

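MTRNR2L2, MTRNR2L8 and MTRNR2L12 are nuclear copies of mitochondrial DNA that held some of the highest nuclear peaks in 4 CUT&Tag libraries made with an antibody against SAF-A (scaffold attachment factor A, also called HNRNPU, a protein of the nucleus that can bind both DNA and RNA). Peaks were taken as theirs when the summit lay between 81.13 and 81.14 Mb on chromosome 5 (MTRNR2L2), between 10.59 and 10.597 Mb on chromosome 11 (MTRNR2L8) or between 99.32 and 99.324 Mb on chromosome 3 (MTRNR2L12) of the human assembly hs1. This gave 24 of the 371353 peaks in the 4 lists, 8 at each locus. Merged over the libraries they formed 5 of the 20334 nuclear regions called in all 4 libraries. The loci were selected on their summit heights in these libraries, so those heights are described here without a test. That the windows hold these genes on hs1 could not be checked, because no annotation of hs1 was at hand.

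The cells were RPE1, an immortalised human retinal pigment epithelial line, labelled wild type in all 4 libraries. The cells were asynchronous in 2 of the libraries and synchronised in mitosis in the other 2, and the replicates of both groups carry the numbers 3 and 4. Each assay used 100000 cells and 1 pg of E. coli DNA for calibration. In CUT&Tag an antibody brings a transposase to the protein, and the DNA fragments that the enzyme releases are sequenced. Nothing in the labels says that replicates came from separate cultures, and p-values then measure only how far these libraries spread, which may be technical. No library without the SAF-A antibody was used here, so background could not be measured at the loci.

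Copies of mitochondrial DNA have been inserted into the nuclear genome through evolution and are known as nuclear mitochondrial segments. The MTRNR2L genes are a family of such copies of MT-RNR2, the gene of the large mitochondrial ribosomal RNA, inside which the short reading frame of the peptide humanin lies; the name stands for MT-RNR2-like. A sequenced fragment of mitochondrial DNA can resemble its nuclear copy closely enough that its place of origin is hard to assign. The peak lists hold no reads, so fragments released at the nuclear copies and fragments of mitochondrial DNA aligned there cannot be told apart directly, and the source of the fragments was not tested.

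In RefSeq's table for GRCh38.p14, used for names and neighbours only, all 13 MTRNR2L symbols are listed as pseudogenes. MTRNR2L2 lies between the coding genes ANKRD34B and MSH3, the latter a DNA mismatch repair gene. MTRNR2L8 lies between AMPD3, which encodes an AMP deaminase, and RNF141, which encodes a RING finger protein. MTRNR2L12 lies between NSUN3, a methyltransferase of mitochondrial transfer RNA, and EPHA6, an ephrin receptor. Positions of the other 10 family members on hs1 were not used here, and they were not analysed.

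MTRNR2L8 also holds the microRNA gene MIR4485. Its sequence is the one part of the 3 loci held in the RefSeq tables, and it is printed because this microRNA is known to match the large mitochondrial ribosomal RNA as well. In the hairpin the capitals mark the mature microRNA, and in the mature form they mark the seed, bases 2 to 8. Where the microRNA lies relative to the peaks on hs1 was not tested.
MIR4485 hairpin: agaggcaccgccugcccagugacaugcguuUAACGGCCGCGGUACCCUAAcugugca
hsa-miR-4485-3p: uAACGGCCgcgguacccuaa

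The asynchronous lists held 101132 (replicate 3) and 76467 (replicate 4) peaks, and the mitotic lists 78908 (replicate 3) and 114846 (replicate 4). Library totals were not used here. The genome background of a list, the lowest local background of any of its peaks, stands for relative depth and was 1.379, 1.166, 1.173 and 1.788 fragments in that order. Mitotic replicate 4 was thus the deepest library and asynchronous replicate 4 the shallowest by this measure. The median summit over the 20334 regions was 25, 21, 20 and 33 fragments. At the spike-in summit there were 39953, 28009, 65379 and 114250 fragments. All values below follow the same order: asynchronous replicates 3 and 4, then mitotic replicates 3 and 4.

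MTRNR2L8 gave 2 peaks in every library. Its second peak, at chr11:10594405-10594815, reached 4573, 3497, 3733 and 6859 fragments at the summit and was the second highest nuclear peak of each list. Only the region at chr13:12167307-12168157 was higher, with 6448, 4790, 5282 and 9903 fragments. The first MTRNR2L8 peak, at chr11:10593697-10594199, reached 1593, 1334, 1225 and 2416 fragments, the fifth place among the 20334 regions by mean rank. The gap between both peaks was 206, 206, 205 and 206 bp. The second summit was 2.87, 2.62, 3.05 and 2.84 times the first. These ratios overlapped between the groups (exact two-sided permutation p = 0.67).

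MTRNR2L2 gave 2, 3, 2 and 1 peaks, all within chr5:81135759-81137087. Its highest summit held 2008, 1663, 1701 and 3121 fragments and lay at the same base or 1 bp away in all 4 libraries. By mean rank this was place 4 among the regions. A first peak of 386 bp with 836, 727 and 638 fragments was called separately in all libraries except mitotic replicate 4. There 1 peak of 1326 bp covered the whole locus. In asynchronous replicate 4 a middle peak of 225 bp reached 1402 fragments. Thus the locus spanned 1326, 1326, 1329 and 1326 bp whether it was called as 1 peak or as several. MTRNR2L2 was counted as 1 region with its highest summit in all comparisons.

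MTRNR2L12 gave 2 peaks in every library, and here too the second was the higher. The second peak, at chr3:99322013-99322216, reached 1198, 1088, 972 and 1796 fragments, place 7 by mean rank, with its summit at position 99322053 in all 4 libraries. The first peak, at chr3:99321286-99321724, reached 494, 398, 409 and 768 fragments, place 15. The gap between them was 293, 292, 288 and 288 bp. The second summit was 2.43, 2.73, 2.38 and 2.34 times the first. Both mitotic ratios lay below both asynchronous ones (log2 difference -0.13, exact two-sided permutation p = 0.33, the smallest that 2 libraries against 2 can give).

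**Figure D1:**
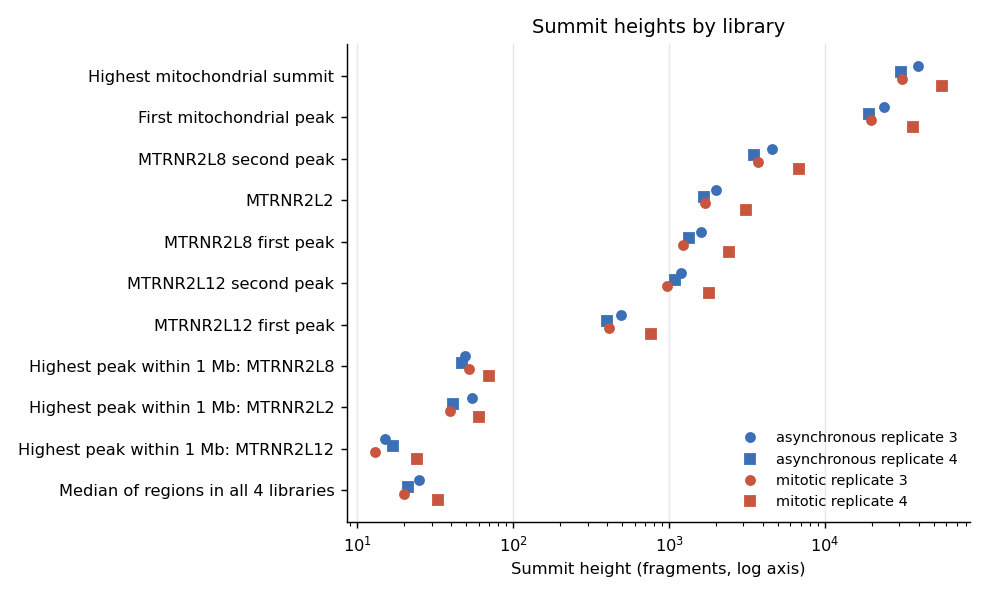
Summit height in fragments (log axis) in each of the 4 libraries, for the highest and the first mitochondrial peak, the 5 regions at the MTRNR2L loci, the highest other peak within 1 Mb of each locus and the median of regions called in all 4 libraries. The MTRNR2L summits, from 398 to 6859 fragments, lie between the mitochondrial summits and the neighbouring nuclear peaks, and mitotic replicate 4 is the highest library for each of them.

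The order of heights, MTRNR2L8 second peak, MTRNR2L2, MTRNR2L8 first peak, MTRNR2L12 second peak and MTRNR2L12 first peak, was the same in all 4 libraries, as the plot of summit heights shows. Divided by the median of regions in the same library, the MTRNR2L8 second peak stood at 183, 167, 187 and 208 times that median. MTRNR2L2 stood at 80.3, 79.2, 85.1 and 94.6 times and the MTRNR2L8 first peak at 63.7, 63.5, 61.3 and 73.2 times. The MTRNR2L12 second peak stood at 47.9, 51.8, 48.6 and 54.4 times and its first peak at 19.8, 19.0, 20.5 and 23.3 times. No neighbours in this order overlapped in their values over the 4 libraries.

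The authors' fold enrichment over local background ranged from 6.24 to 27.3 at the 24 peaks, with a median of 15.1. It did not follow the summit heights. The MTRNR2L12 second peak had a fold of 25.3, 27.3, 23.9 and 23.7, above the 22.96, 22.37, 22.03 and 21.65 of the taller MTRNR2L8 second peak. The local background recovered at MTRNR2L8 was 144, 133, 144 and 177 times the genome background of the list. At MTRNR2L2 it was 86.1, 83.8, 86.4 and 108 times, and at MTRNR2L12 33.7, 33.3, 33.8 and 41.8 times. The settings behind the peak caller's local background are not given in the labels or files used here.

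The neighbourhood of each locus held low peaks. Within 1 Mb on either side of MTRNR2L8 there were 118, 96, 93 and 136 other peaks with a median summit of 10, 11, 10 and 12 fragments. The highest of them had 49, 47, 52 and 70 fragments, so the MTRNR2L8 second summit was 93.3, 74.4, 71.8 and 98.0 times its highest neighbour. Around MTRNR2L2 there were 77, 51, 72 and 108 peaks, with a median of 9, 9, 9 and 11 fragments and a highest summit of 54, 41, 39 and 60. MTRNR2L12 lay in a sparse stretch with only 8, 9, 9 and 10 other peaks in the same distance and none above 15, 17, 13 and 24 fragments.

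The nearest other peak was 5917 to 49012 bp away on the left of MTRNR2L2 and 6702 to 19639 bp away on the left of MTRNR2L8. For MTRNR2L12 that distance was 52858 to 350433 bp. All these nearest peaks, on both sides, had 6 to 20 fragments. The tall signal therefore did not extend into a broader block of high peaks at any of the 3 loci.

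Edges of the 5 regions repeated almost to the base. The start of the first MTRNR2L8 peak, both MTRNR2L12 peaks and MTRNR2L2 was the same base in all 4 libraries, and that of the second MTRNR2L8 peak differed by 1 bp. The ends differed by 0 to 5 bp. Both edges fell within 5 bp over the libraries in 5 of 5 regions. That was the case for 24 of all 20334 regions (0.118%) and for 4 of the 187 other regions with at least 100 fragments in every library (2.14%). The median range over all regions was 195 bp for the start and 197 bp for the end. Higher regions varied less: it was 64 and 57 bp over the 187, and 68 and 8 bp over the 10 others with at least 398 fragments in every library. The 4 other regions with edges that tight included chr13:12167307-12168157 and chr9:123897-124091, both with a range of 0 bp at start and end. They are the only regions in the first 5 places that do not belong to MTRNR2L8 or MTRNR2L2. All regions in the first 5 places thus had edges within 5 bp, so at that height the trait was not particular to the MTRNR2L loci.

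Summits were less fixed than edges at one of the loci. The first MTRNR2L8 summit lay at 10593870 or 1 bp before it in 3 libraries and at 10594138 in mitotic replicate 3, a range of 269 bp inside a peak whose edges did not move. The other summits had a range of 0 to 13 bp.

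**Figure D2:**
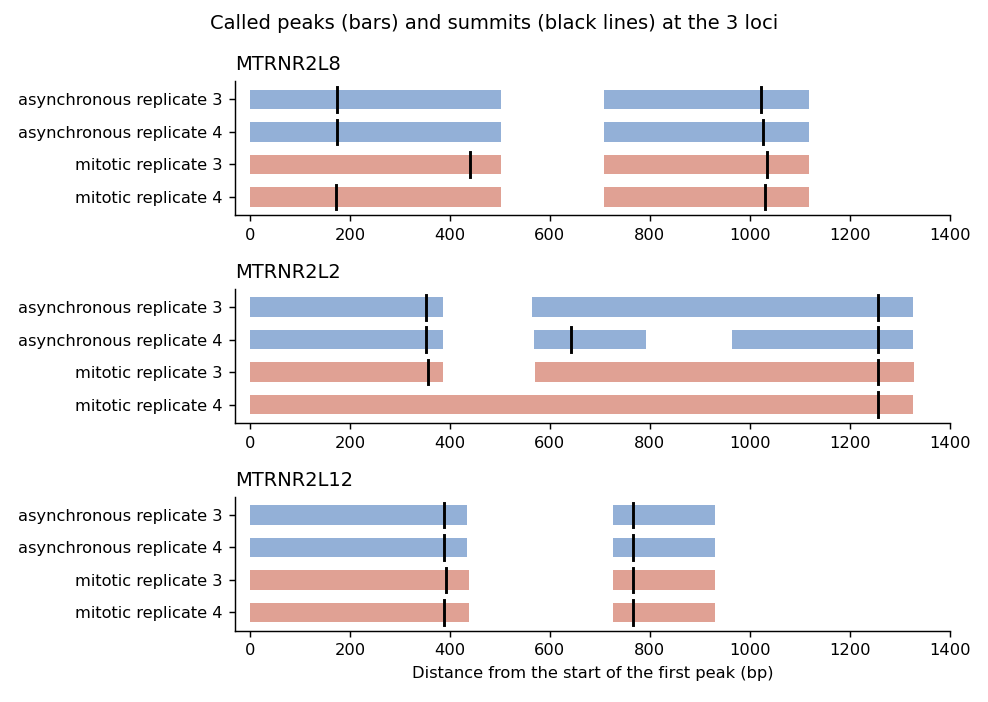
Called peaks (bars) and their summits (black lines) at MTRNR2L8, MTRNR2L2 and MTRNR2L12 in the 4 libraries, as distance in bp from the start of the first peak. The outer edges agree within 5 bp, while MTRNR2L2 is divided into 2, 3, 2 and 1 peaks and the first MTRNR2L8 summit moves in mitotic replicate 3.

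The mitochondrial contig carried 7, 6, 7 and 7 peaks. Mitochondrial DNA has no nucleosomes and is present in many copies per cell, and its numbering starts in the control region and runs next through the genes of the ribosomal RNAs, MT-RNR1 and MT-RNR2. The highest summit lay at position 15859 in every library and held 39562, 31013, 31041 and 56536 fragments. The lowest mitochondrial summit still held 17064, 13464, 14611 and 26559 fragments, above every MTRNR2L summit. The first mitochondrial peak began within the first 50 bases, ended between positions 3590 and 3620 and had 23829, 19183, 19876 and 36741 fragments at its summit, position 291 or 292. With no gene annotation of hs1 at hand, mitochondrial peaks were not assigned to genes.

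Against the highest mitochondrial summit, the MTRNR2L8 second peak stood at 11.6%, 11.3%, 12.0% and 12.1%. Its mean was 11.4% ± 0.200 in asynchronous and 12.1% ± 0.075 in mitotic libraries (SD, n = 2 each). MTRNR2L2 stood at 5.08%, 5.36%, 5.48% and 5.52%, and the MTRNR2L12 first peak at 1.25%, 1.28%, 1.32% and 1.36%. These 3 regions had both mitotic libraries above both asynchronous ones, by 0.08 on the log2 scale each (exact two-sided permutation p = 0.33). The MTRNR2L8 first peak, at 4.03%, 4.30%, 3.95% and 4.27%, and the MTRNR2L12 second peak, at 3.03%, 3.51%, 3.13% and 3.18%, overlapped between the groups. A count of 3 of 5 compares with 10.2% of all regions whose groups did not overlap in this direction on this scale. Against the median of all mitochondrial summits the direction was the opposite: all 5 regions had both mitotic libraries below both asynchronous ones, with log2 differences of -0.18 to -0.056, as did 42.1% of all regions. The direction of these small differences thus depends on which mitochondrial summit is the reference.

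Against the first mitochondrial peak the values of 3 regions came closer together. The MTRNR2L12 first peak stood at 2.07%, 2.07%, 2.06% and 2.09%. MTRNR2L2 stood at 8.43%, 8.67%, 8.56% and 8.49%, and the MTRNR2L8 second peak at 19.2%, 18.2%, 18.8% and 18.7%. None of these 3 separated the groups, and the sign of the MTRNR2L2 difference flipped to -0.0035 on the log2 scale. The MTRNR2L8 first peak (6.69%, 6.95%, 6.16% and 6.58%) and the MTRNR2L12 second peak (5.03%, 5.67%, 4.89% and 4.89%) were lower in both mitotic libraries, by 0.10 and 0.13 on the log2 scale (exact two-sided permutation p = 0.33 for each). On this scale 36.5% of all regions were lower in both mitotic libraries, beside 2 of the 5. This reference was added after the data were seen.

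**Figure D3:**
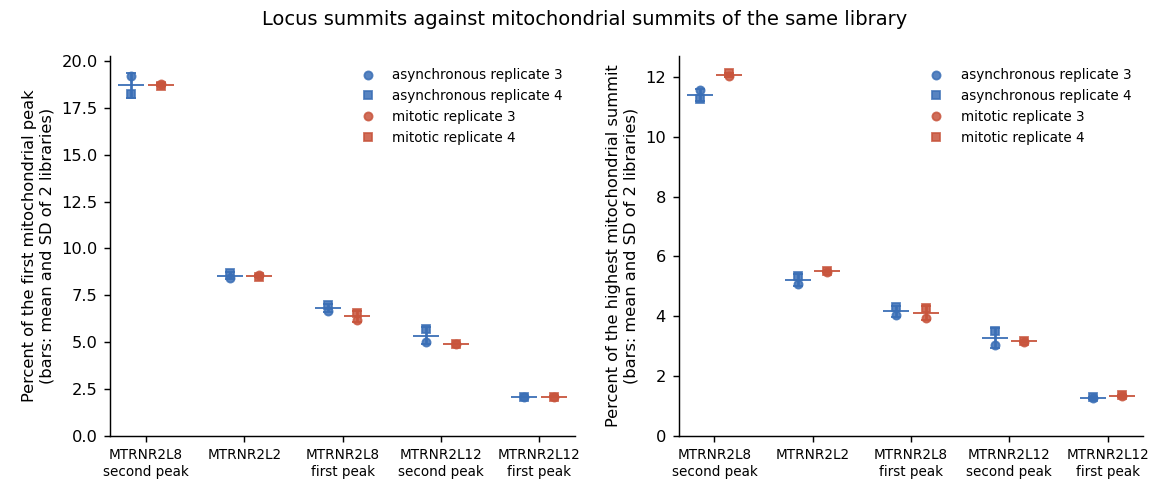
Summit height of the 5 regions at the MTRNR2L loci as a percentage of the first (left) and of the highest (right) mitochondrial summit of the same library; points are libraries, and dashes with bars are the mean and SD of 2 libraries. On the left the MTRNR2L12 first peak stays between 2.06% and 2.09%. On the right MTRNR2L2 and the MTRNR2L8 second peak are higher in the mitotic libraries by only 0.08 on the log2 scale. Against the median of all mitochondrial summits, which is not plotted, both are lower in the mitotic libraries (-0.061 and -0.056).

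How closely the loci followed each reference was described by the SD over the 4 libraries of the log2 ratio. Relative to the median of regions the SD of the 5 regions was 0.085 to 0.131, with a median of 0.116. Relative to the highest mitochondrial summit it was 0.049 to 0.091, with a median of 0.055. Relative to the first mitochondrial peak it was 0.009 to 0.102, with a median of 0.030. The SD was lower against each of these mitochondrial references than against the median of regions in 4 of 5 regions. The exception was the MTRNR2L12 second peak, with 0.091 and 0.102 against 0.085.

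Counting error alone would give an SD of about 0.022 for the MTRNR2L8 second peak, 0.032 for MTRNR2L2, 0.037 for the MTRNR2L8 first peak, 0.042 for the MTRNR2L12 second peak and 0.066 for the MTRNR2L12 first peak. The SD of 0.009 of the MTRNR2L12 first peak against the first mitochondrial peak is below that, so differences among SDs this small are not readable. The median of regions is a whole number of fragments, which adds rounding to its ratios. Spike-in scaling gave the widest spread, with an SD of 0.598 to 0.687. Neighbours within 1 Mb gave 0.185 to 0.367.

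As a comparison, 10 other regions had at least 398 fragments, the lowest summit of the 5 regions, in every library. Their SD was 0.045 to 0.300 against the first mitochondrial peak, with a median of 0.193, and 0.049 to 0.213 against the median of regions, with a median of 0.132. It was lower than against the median of regions in 3 of 10 for the first mitochondrial peak and in 4 of 10 for the highest mitochondrial summit. The 3 included chr13:12167307-12168157 and chr9:123897-124091, with 0.054 and 0.045 against the first mitochondrial peak, the same regions whose edges also repeated to the base. Against the first mitochondrial peak, the reference added after the data were seen, none of the 10 had an SD at or below the median of the MTRNR2L regions. On that scale 4 were at or below their largest. That median, 0.030, is below even the counting error of 0.032 for MTRNR2L2, so the absence of lower values is not readable. Against the highest mitochondrial summit, chr17:177-1672 (0.041) and chr9:123897-124091 (0.052) lay below the median of the MTRNR2L regions (0.055). These counts describe 4 libraries and carry no test.

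**Figure D4:**
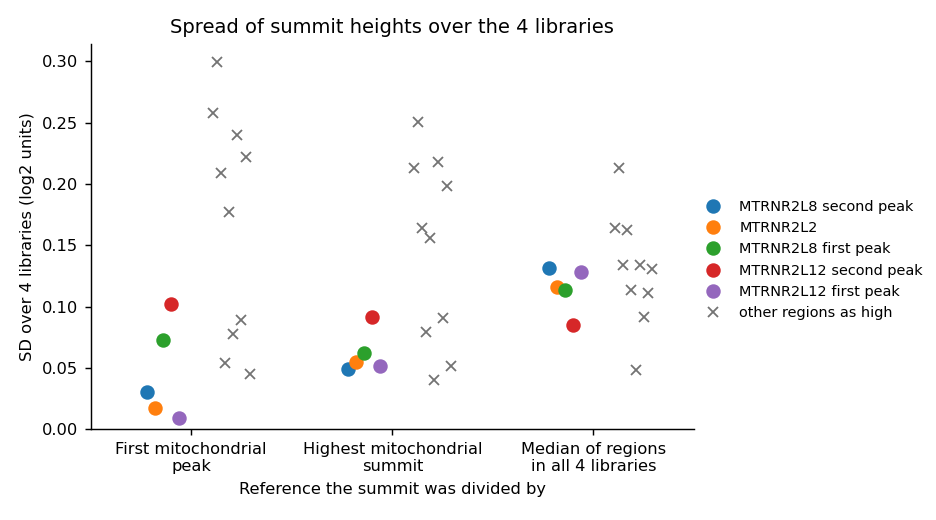
SD over the 4 libraries of log2 summit height divided by the first mitochondrial peak, by the highest mitochondrial summit or by the median of regions called in all 4 libraries. Coloured points are the 5 regions at the MTRNR2L loci and grey crosses the 10 other regions at least as high; 4 of the 5 points lie lower against both mitochondrial references than against the median of regions, and of the 10 crosses 3 lie lower against the first mitochondrial peak and 4 against the highest mitochondrial summit.

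Other regions were ranked by how like their pattern over the libraries was to that of each MTRNR2L region. Each log2 height was centred on its own mean, and the distance between 2 patterns was the Euclidean distance over the 4 libraries. For a reference this distance restates the SD of the ratio, so it adds nothing to the SDs above, and the smallest distances lie within counting error too. For the MTRNR2L12 first peak the first mitochondrial peak lay at a distance of 0.016 and the nearest of 187 other regions with at least 100 fragments, chr9:123897-124091, at 0.065. For MTRNR2L2 these distances were 0.030 and 0.080 (chr11:3905552-3907182), and for the MTRNR2L8 second peak 0.053 and 0.054 (chr13:12167307-12168157). For the MTRNR2L8 first peak 7 regions were nearer than the first mitochondrial peak, which lay at 0.126. For the MTRNR2L12 second peak 39 were nearer, the closest being chr1:107-2126 at 0.023. The region chr9:123897-124091 was among the 5 nearest for 4 of the 5 regions. All patterns share the depth of the 4 libraries, so likeness in itself is common.

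**Figure D5:**
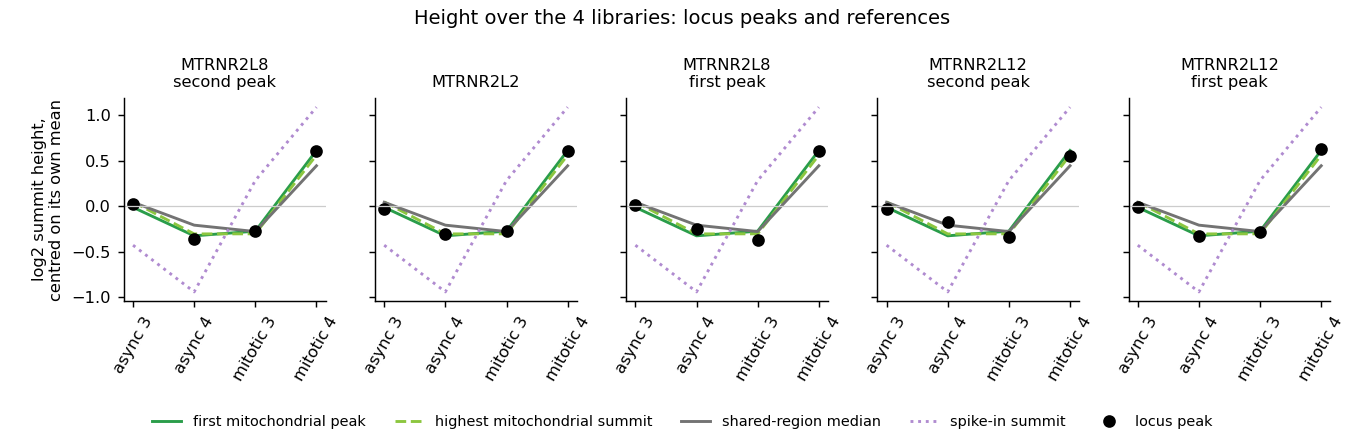
log2 summit height centred on its own mean in the 4 libraries (async, asynchronous), for each of the 5 regions at the MTRNR2L loci (black points) and for the first mitochondrial peak, the highest mitochondrial summit, the median of regions called in all 4 libraries and the spike-in summit (lines). The points of MTRNR2L2 and the MTRNR2L12 first peak lie at distances of 0.030 and 0.016 from the first mitochondrial peak. Distances this small are within counting error, so an order of closeness is not readable from them. The points lie away from the spike-in line.

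Whether the loci differed between mitotic and asynchronous cells was tested with limma on log2 summit heights divided by the median of regions, fitted over all 20334 regions. None of the 5 regions passed a Benjamini-Hochberg adjusted p of 0.05, and 0 had an unadjusted p under that value. Of all regions 12 passed (0.059%), and 1810 had an unadjusted p under 0.05. The MTRNR2L8 second peak was 0.17 higher in mitotic libraries on the log2 scale (SE 0.11, limma adjusted p = 0.690), and MTRNR2L2 0.17 higher (SE 0.11, limma adjusted p = 0.722). The MTRNR2L12 first peak was 0.17 higher (SE 0.13, limma adjusted p = 0.760). For the MTRNR2L8 first peak the difference was 0.07 (SE 0.12, limma adjusted p = 0.918), and for the MTRNR2L12 second peak 0.05 (SE 0.12, limma adjusted p = 0.955). The median of the 5 differences was 0.17, and over all regions it was -0.02.

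On this scale 3 of 5 regions, MTRNR2L2, the MTRNR2L8 second peak and the MTRNR2L12 first peak, had both mitotic values above both asynchronous ones, while 17.1% of all regions did. With the authors' fold enrichment in place of summit heights, all 5 differences turned negative, from -0.044 to -0.18, and none was called. A missed threshold does not show that heights were equal in both states.

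Scaled to the spike-in summit, all 5 regions were lower in both mitotic libraries. The MTRNR2L8 second peak stood at 11.4%, 12.5%, 5.71% and 6.004% of the spike-in summit. The 5 differences ran from -1.16 to -1.03 on the log2 scale (exact two-sided permutation p = 0.33 for each). With limma each of them was called (largest adjusted p = 6.7e-09), but all regions of a library share the same spike-in summit. Pooling over regions treats that shared error as independent, so the limma p overstates what 2 libraries against 2 can show. Lower mitotic values held for nearly everything: 98.1% of the 20334 regions were lower in both mitotic libraries on that scale. Of all regions limma called 19342, and the median difference was -1.22. The spike-in summit itself was higher in both mitotic libraries, so a lower yield at these loci and a larger share of spike-in fragments cannot be told apart.

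Relative to their neighbours within 1 Mb, the MTRNR2L12 peaks were lower in both mitotic libraries, by 0.28 for the first and 0.41 for the second on the log2 scale (exact two-sided permutation p = 0.33 for each). That comparison rests on 8 to 10 low peaks a library, whose median was 7.5, 7, 8 and 15.5 fragments. Both MTRNR2L12 peaks were divided by these same medians, so they are not separate observations. The share of all regions with groups that did not overlap was not computed on this scale, so no reading of the MTRNR2L12 loci is drawn from it. With neighbours within 5 Mb the signs turned, to 0.27 and 0.14. MTRNR2L2 and both MTRNR2L8 peaks overlapped between the groups relative to their neighbours.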

How the data were processed

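SAF-A CUT&Tag in RPE1 cells was analysed from 4 peak lists; each library has a list of its own, called without pooling the replicates. The tools named in the submitters' processing notes are MACS2, Bowtie2, fastp and bedtools, with build hs1. Not given in the sources used here are their versions and parameters, any control library, and how duplicates, reads that align to several places and the spike-in were handled. For each peak the authors deposited a fold enrichment (the ratio of summit pileup to local background), -log10 p and -log10 q values, a score, which was not used, and the summit's offset from the peak start. Fold, p and q are the authors' own values. The deposited lists reach a q of 0.1.

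Summit heights in fragments were recovered from the deposited fold and -log10 p, by solving fold = (pileup + 1) / (background + 1) with p as a Poisson tail. Recovered heights under 200 were whole within 0.05 in all peaks. Of the higher ones, 96.1% of 103 (asynchronous replicate 3), 97.3% of 74 (asynchronous replicate 4), 88.0% of 50 (mitotic replicate 3) and 95.1% of 144 (mitotic replicate 4) were whole. Peaks sharing at least 1 bp were merged, and 20334 nuclear regions were called in all 4 libraries. Heights were divided by the library's median over these regions and fitted with limma 3.58.1 (R 4.3.3, trended prior, Benjamini-Hochberg adjustment over all regions), after a check on simulated data. Ratios to mitochondrial, neighbouring and spike-in summits were tested between groups with two-sided exact permutation tests (scipy 1.17.1), where p cannot go below 0.33. Precision is limited by the number of libraries and by counting error.

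Every peak in the 3 windows and on the mitochondrial contig was described, with the 5 nearest regions in pattern and the neighbours within 1 Mb. The loci, lists and comparisons were chosen with earlier results of these data known. Alternatives were other scalings, the authors' fold, stricter peaks (-log10 q of at least 5), a reciprocal overlap of 50%, a prior without trend, the replicate number as a block, other neighbour distances and each library left out. The first mitochondrial peak as a reference was added after seeing the data. The RefSeq tables (GRCh38.p14) gave names, neighbouring genes and the microRNA sequences.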

Additional observations from a re-analysis of the deposited data

How the results depend on the processing

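None of the 5 regions at the MTRNR2L loci was called by limma under any setting except spike-in scaling, where the log2 differences were -1.03 (MTRNR2L12 first peak), -1.16 (MTRNR2L12 second peak), -1.03 (MTRNR2L2), -1.13 (MTRNR2L8 first peak) and -1.03 (MTRNR2L8 second peak). With the authors' fold enrichment they were -0.044, -0.17, -0.070, -0.18 and -0.082 in the same order. Scaled to the highest mitochondrial summit, the MTRNR2L12 second peak and MTRNR2L8 first peak turned to -0.047 and -0.019. Without 1 library the difference ranged from -0.036 to 0.13 for the MTRNR2L12 second peak, negative without asynchronous replicate 3 (-0.011) or mitotic replicate 4, and from -0.055 to 0.20 for the MTRNR2L8 first peak, negative without mitotic replicate 4. The number of all regions called was 0 with the genome background, 19342 with the spike-in, 34 with the highest mitochondrial summit, 0 without a trend, 3 with stricter peaks, 6 with the reciprocal overlap, under which MTRNR2L2 gave no region, 0 with the authors' fold, and 1 to 12 without 1 library (asynchronous replicate 3 left out, 6; asynchronous replicate 4, 5; mitotic replicate 3, 1). The zero counts, all from limma, stand beside 1689, 1558 and 1245 regions with an unadjusted p under 0.05. Against the median of all mitochondrial summits the log2 differences of the MTRNR2L12 first peak, MTRNR2L2 and the MTRNR2L8 second peak turned to -0.057, -0.061 and -0.056, all 5 regions being lower in both mitotic libraries, and that of MTRNR2L2 against the first mitochondrial peak to -0.0035. The MTRNR2L12 second peak's mitochondrial ratio turned to 0.011 with the authors' fold and ranged from -0.15 to 0.059 without 1 library, positive without asynchronous replicate 4. That of the MTRNR2L8 first peak ranged from -0.077 to 0.038, positive without asynchronous replicate 4 (0.028) or mitotic replicate 3. Against neighbours, the MTRNR2L12 first and second peaks turned to 0.27 and 0.14 within 5 Mb, 0.30 and 0.18 with stricter neighbours and 0.19 and 0.065 against the highest neighbour, and the MTRNR2L8 first peak turned to -0.091 against the highest neighbour. Without 1 library the neighbour difference ranged from -0.10 to 0.48 for MTRNR2L2, -0.18 to 0.53 for the MTRNR2L8 first peak (-0.021 without asynchronous replicate 4) and -0.031 to 0.58 for the MTRNR2L8 second peak, lowest in each without mitotic replicate 4. The median SD over the libraries, 0.116 against the median of regions, was 0.152 against the genome background, 0.606 against the spike-in, 0.055, 0.045 and 0.030 against the highest, median and first mitochondrial summits and 0.286 against neighbours. The causes of these changes were not tested.

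Same-numbered replicates did not deviate together (r = -0.05 over 20334 regions), so the numbers were not taken to pair the libraries. With the replicate block limma called 14 regions and none at the MTRNR2L loci, whose differences stayed at 0.17, 0.05, 0.17, 0.07 and 0.17. Which mitochondrial peak matches each copy in sequence could not be established, because no genome of the build was at hand. Whether the first mitochondrial peak, used here as a reference, covers the matching stretch was not tested. Its summit, at position 291 or 292, need not give the height over that stretch. Depth limits the comparison with neighbours, whose median summits were 7 to 15.5 fragments.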
